A study of Homo sapiens with 27 samples.

Results

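The 12 libraries described here, of 27 in the series, are RNA-seq libraries of EA.hy926 cells, an endothelial-like line derived from the fusion of an umbilical vein cell and a lung carcinoma cell. The cells had met the products of ASC52telo, an hTERT-immortalised line of adipose mesenchymal stromal cells (MSCs), for 48 h, either as decellularised extracellular matrix (ECM), onto which they were seeded, or as conditioned medium (CM), which was mixed with their own medium. They were chosen by their labels: 6 ECM libraries (3 with matrix of senescent MSCs and 3 with matrix of young MSCs) were set against 6 CM libraries (3 and 3 likewise), with replicates 2 to 4 of each group and the state of the MSCs as a covariate. Senescent MSCs had received 1.5 µg/mL mitomycin C, a DNA crosslinker, for 18 h and were kept for 10 days without passaging before their products were used; young MSCs were untreated. Control cells, with 3 libraries of replicates 2 to 4, had no MSC product and give the unexposed level. All groups carry the same genotype label, wt. Each cell type is a single established line, the endothelial one with a carcinoma parent, so the comparison holds for this pair of lines. ECM and CM cultures also differed in the surface under the cells and in the make-up of the medium, which cannot be told apart from the MSC products. The labels do not say whether the replicates were separate cultures, so the p-values rest on a spread among libraries that may be technical.

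Endothelial cells read the matrix beneath them through integrins, which gather focal adhesion proteins and activate kinase cascades, among them the MAP kinase pathway. Soluble factors act through other receptors: EGF family ligands, TGF-beta family ligands, WNT proteins and cytokines each have receptors of their own, and Notch signals pass between neighbouring cells. The endothelial response is known for a few groups of outputs: vasoactive products such as nitric oxide and endothelin, surface regulators of clotting and fibrinolysis, leukocyte recruitment signals, junction proteins and matrix-remodelling enzymes. The comparison asks in which of these outputs cells on matrix and cells in conditioned medium differ.

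Of 17571 genes tested, 2409 (13.7%) differed between ECM and CM libraries at an adjusted p under 0.05: 1473 (8.38%) were higher and 936 (5.33%) were lower in ECM. Fold changes of at least 2 were found for 450 of the higher and 250 of the lower genes. In 1391 genes (7.92% of those tested) the 6 ECM libraries did not overlap the 6 CM libraries, with ECM above in 849 (4.83%) and below in 542 (3.08%), and 1275 of the 1391 were among the 2409. A log2 fold change here is ECM over CM, so positive values mean higher in ECM; its error is the standard error. Adjusted p-values of genes come from edgeR's quasi-likelihood test, with Benjamini-Hochberg adjustment across all genes tested, unless DESeq2 is named. Levels are in CPM, counts scaled to library size, with libraries brought to a common scale by the trimmed mean of M-values (TMM), and errors of mean levels are SDs. Where 3 levels are given for a group they are the lowest, the median and the highest of its 6 libraries. The lists named below were chosen with earlier results of these data known, and their counts are to be read against the 8.38% and 5.33% of all genes.

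**Figure D1:**
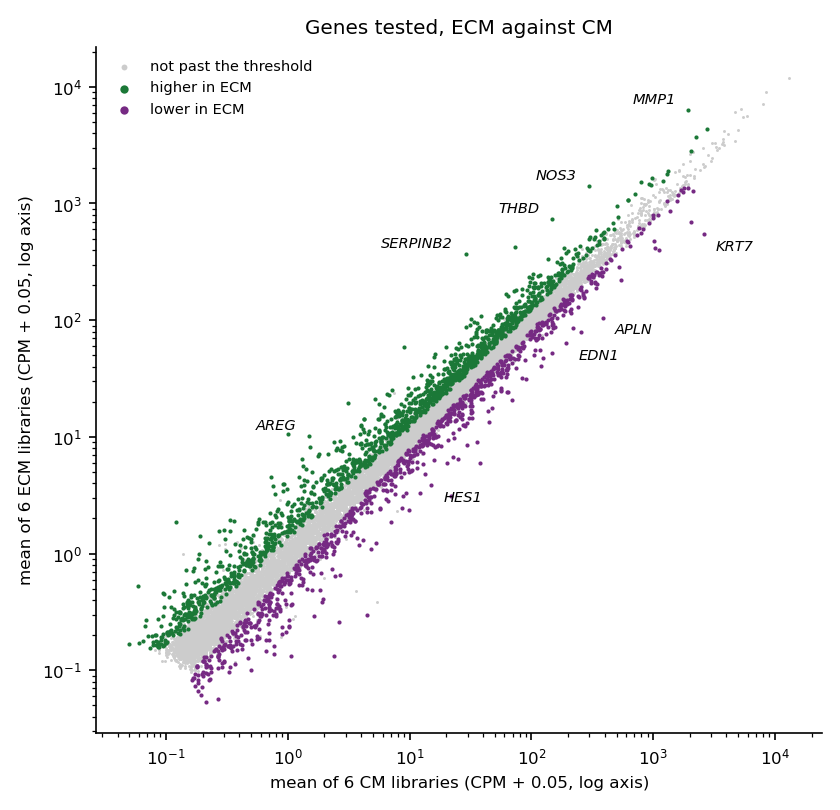
Mean level of each gene tested in the 6 ECM libraries (vertical, CPM + 0.05, log axis) against its mean in the 6 CM libraries (horizontal, same units). Of the 17571 genes tested, those on chromosome Y and XIST are not drawn. Green genes were higher and purple genes lower in ECM at an adjusted p under 0.05. Changed genes lie on both sides of the diagonal, with SERPINB2, AREG, NOS3, THBD and MMP1 above and KRT7, APLN, EDN1 and HES1 below.

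The 12 libraries held 69883356 to 102130050 counts each. Young ECM replicate 3 stood apart from the other ECM libraries: ribosomal protein genes took 12.4% of its counts, against 5.73 to 7.94% in the other 5. Without it the comparison called 3274 of 18108 genes (18.1%), 1813 (10.0%) higher and 1461 (8.07%) lower, and 2291 of the 2409 stayed called in the same direction. The libraries of replicate 1, which are not among the 12, held stromal transcripts: the 28 genes of the stromal list took 0.672 and 0.613% of counts in senescent and young ECM, 1.08 and 0.951% in senescent and young CM and 1.16% in control, against 0.0298 to 0.0698% in the 12 libraries. In bulk RNA, fewer cells of a type and less RNA per cell cannot be told apart.

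The endothelial label was checked against 31 endothelial marker genes, of which 28 passed the filter on low counts. PECAM1, an adhesion receptor of endothelial junctions, averaged 500.0 ± 72.3 CPM in ECM libraries and 649 ± 84.5 CPM in CM libraries (SD, n = 6 each), a difference that missed the threshold (log2 fold change -0.37 ± 0.12, adjusted p = 0.052) and passed it in DESeq2 (-0.38, adjusted p = 0.0153), under upper-quartile (-0.40, adjusted p = 0.0344) and RLE scaling (adjusted p = 0.0472), without the covariate (adjusted p = 0.0413) and with a replicate block (-0.37, adjusted p = 0.0324). It also passed without young ECM replicate 4 (adjusted p = 0.00845) or young CM replicate 3 (adjusted p = 0.0362). VWF, the platelet-binding factor of endothelial storage granules, averaged 4.4 ± 1.12 CPM in ECM libraries and 6.32 ± 2.14 CPM in CM libraries and did not pass either (log2 fold change -0.48 ± 0.22, adjusted p = 0.177). KDR, the main VEGF receptor, had a log2 fold change of 0.37 ± 0.20 (adjusted p = 0.249) at 13.1 and 10.4 CPM in ECM and CM. EMCN, CLDN5 and TAL1 stayed under 0.5 CPM in all 12 libraries. CDH5, the cadherin of endothelial junctions, was lower in ECM, with 149, 264 and 277 CPM in ECM libraries, against 244, 386 and 549.1 CPM in CM libraries. For CDH5 the log2 fold change was -0.65 ± 0.17 (adjusted p = 0.0199). Its groups overlapped. Of the tested endothelial markers 4 rose and 6 fell, with a median log2 fold change of -0.08. NOS3 and PLVAP were among those that rose, and APLN and MMRN1 among those that fell, all described below. As a share of counts the endothelial list took 0.629 ± 0.0871% in ECM and 0.608 ± 0.0911% in CM (SD, n = 6 each; exact permutation test within MSC state, 2-sided, p = 0.69). That share includes NOS3, which averaged 1409 ± 418 CPM in ECM and 300 ± 122 CPM in CM libraries. The share of the list without NOS3 was not tested.

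Markers of other cell types were read in the same libraries. The stromal list took 0.0459 ± 0.0092% of counts in ECM and 0.0477 ± 0.0153% in CM (n = 6 each; exact permutation test, p = 0.775), and COL1A1 and TERT, which are among the tracers of the MSC line, had log2 fold changes of 0.02 ± 0.19 (adjusted p = 0.962) and -0.10 ± 0.19 (adjusted p = 0.769). None of the 10 MSC tracer genes tested passed the threshold, and LUM was under 0.5 CPM in all 12. Within the stromal list LOX, which crosslinks collagen, was higher in ECM (log2 fold change 1.41 ± 0.13, adjusted p = 1.03e-05), though with all 4 replicates its log2 fold change was 0.21 (adjusted p = 0.952). FAP, a surface protease, and COL5A1, a fibrillar collagen chain, were lower (log2 fold change -1.42 ± 0.09, adjusted p = 3.56e-07, and log2 fold change -1.18 ± 0.28, adjusted p = 0.0117). The smooth muscle list was smaller still, at 0.00888 ± 0.000837% in ECM and 0.0123 ± 0.00144% in CM (n = 6 each; exact permutation test, p = 0.005, the smallest that the 400 relabellings within state allow), and MYH11, CNN1, DES and 6 other of its 14 genes were under 0.5 CPM throughout. RGS5 held most of the list's counts, with 72.4 ± 6.57 CPM in ECM and 102 ± 14.1 CPM in CM libraries. Of the 7 genes of the list tested 1 rose and 1, RGS5, fell (log2 fold change -0.49 ± 0.11, adjusted p = 0.0076). The haematopoietic list took 0.00043 to 0.000641% of counts in ECM and 0.000496 to 0.00066% in CM, with PTPRC, CD14 and SPI1 among the 7 of its 10 genes under 0.5 CPM in all 12. ADIPOQ and LEP of the adipocyte list, and CDH1 of the epithelial list had 0 counts in all 12 libraries.

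Keratins, epithelial genes that this hybrid line carries, were lower on matrix. Of 11 epithelial genes tested, 6 fell and 1 rose, with a median log2 fold change of -1.29, and the list took 0.117 to 0.134% of counts in ECM, against 0.362 to 0.574% in CM and 0.221 to 0.268% in control (ECM against CM, n = 6 each; exact permutation test within MSC state, p = 0.005, the smallest possible). Log2 fold changes, called or not, were positive in 5 of the 11. KRT7, KRT18, KRT8 and KRT80 held most of the list's counts, so the share mainly restates these 4 genes. KRT7, a simple-epithelial keratin, had 459, 558 and 609 CPM in ECM libraries, against 2021, 2659 and 3408 CPM in CM libraries. KRT7 had a log2 fold change of -2.24 ± 0.13 (adjusted p = 2.42e-07). Every ECM library lay below every CM library, and the control level, 1286 ± 166 CPM (SD, n = 3), lay between. KRT18, which pairs with KRT8 in simple epithelia, had 355, 396 and 472 CPM in ECM libraries, against 896, 1122 and 1419 CPM in CM libraries. For KRT18 the log2 fold change was -1.47 ± 0.13 (adjusted p = 6.12e-06). KRT8 had 189, 220.1 and 252 CPM in ECM libraries, against 438, 522 and 742 CPM in CM libraries. KRT8 had a log2 fold change of -1.29 ± 0.12 (adjusted p = 9.96e-06). KRT80, another type II keratin, had a log2 fold change of -1.47 ± 0.16 (adjusted p = 3.45e-05), and none of the 4 overlapped. KRT8 and KRT18 have many near-identical copies in the genome, which the authors' counting could have split. CDH1 was at 0 counts, and KRT19, CLDN4, ELF3, ESRP1 and SFTPB of the same list were under 0.5 CPM in all 12 libraries. JUP, the junction protein plakoglobin that links cadherins to the cytoskeleton, moved the same way, with 10.4, 23.3 and 25.5 CPM in ECM libraries, against 33.2, 66.2 and 126 CPM in CM libraries. For JUP the log2 fold change was -1.68 ± 0.28 (adjusted p = 0.000902). The part of the epithelial genes in the other differences was not tested.

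**Figure D2:**
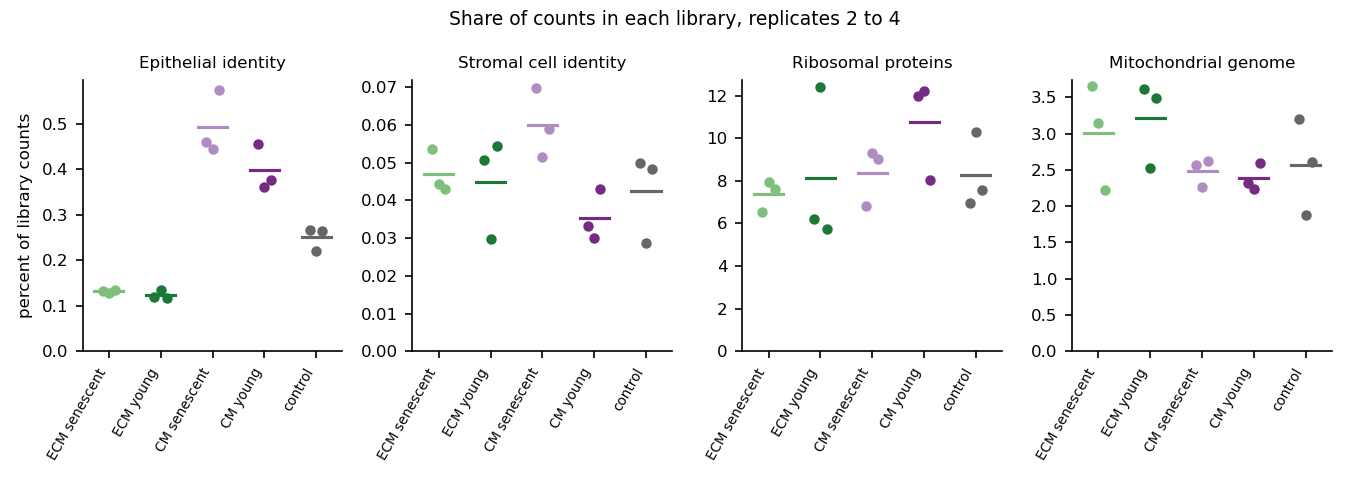
Share of library counts (percent) taken by the epithelial, stromal, ribosomal protein and mitochondrial genome lists in each library of replicates 2 to 4; points are libraries and lines are group means. The epithelial share is 0.117 to 0.134% in ECM and 0.362 to 0.574% in CM with no overlap. For ribosomal proteins 1 young ECM library stands at 12.4%, and CM libraries reach 12.2%.

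A few EGF receptor ligands and regulators were higher on matrix, and none of their list was lower. AREG, amphiregulin, an EGF receptor ligand (ENSG00000109321.11, chromosome 4, 74445134 to 74455009, plus strand; GRCh38, GENCODE 29), had 9.16, 9.68 and 12.3 CPM in ECM libraries, against 0.691, 1.33 and 2.26 CPM in CM libraries. AREG had a log2 fold change of 2.86 ± 0.19 (adjusted p = 6.06e-07). The ECM libraries all lay above the CM libraries, and control libraries lay between at 3.59 ± 0.429 CPM (SD, n = 3). ERRFI1, a feedback inhibitor of the EGF receptor, had 82.6, 88.3 and 93.9 CPM in ECM libraries, against 31.6, 35.6 and 51.6 CPM in CM libraries. For ERRFI1 the log2 fold change was 1.24 ± 0.12 (adjusted p = 9.96e-06). NRG1, a ligand of ERBB receptors, was higher (log2 fold change 0.53 ± 0.11, adjusted p = 0.00418). The EGF receptor list had 3 members higher and 0 lower of 11 tested, with a median log2 fold change of 0.33.

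Of 27 immediate early and MAP kinase feedback genes tested, 10 (37%) rose and 0 fell (median 0.28); without young ECM replicate 3, 10 rose and 1 fell. EGR1, a transcription factor induced within minutes of growth factor signals, had 3.43, 5.44 and 8.2 CPM in ECM libraries, against 0.895, 1.28 and 1.74 CPM in CM libraries. EGR1 had a log2 fold change of 2.13 ± 0.22 (adjusted p = 2.13e-05). All 6 ECM libraries were above all 6 CM libraries, and the control mean was 1.75 ± 0.783 CPM (SD, n = 3). In replicate 1 the order was the other way round, with 22.1 and 14.3 CPM in ECM libraries, against 41 and 57.5 CPM in CM libraries (senescent, then young), and a fit of all 4 replicates gave a log2 fold change of -0.58 (adjusted p = 0.859). SPRY2, an inhibitor of receptor tyrosine kinase signalling that the pathway itself induces, had 92.6, 115 and 119.9 CPM in ECM libraries, against 26.7, 40.1 and 43.9 CPM in CM libraries. For SPRY2 the log2 fold change was 1.51 ± 0.13 (adjusted p = 5.64e-06). SPRY4, its paralogue, was higher (log2 fold change 1.22 ± 0.22, adjusted p = 0.00153), and DUSP6, a phosphatase that switches off ERK, was too (log2 fold change 0.96 ± 0.11, adjusted p = 5.79e-05). The 6 ECM libraries did not overlap the 6 CM libraries for SPRY2 or DUSP6.

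Clotting and fibrinolysis genes moved in both directions: 5 rose and 6 fell of 23 tested. SERPINB2, plasminogen activator inhibitor 2 (ENSG00000197632.9, chromosome 18, 63871692 to 63903890, plus strand), had the largest log2 fold change among the genes named by level and separation, with 292, 379 and 434 CPM in ECM libraries, against 11.5, 29.5 and 44.8 CPM in CM libraries. SERPINB2 had a log2 fold change of 3.79 ± 0.25 (adjusted p = 6.71e-07). The lowest ECM library lay above the highest control library, at 102 CPM, and the highest CM library lay below the lowest control library, at 70.1 CPM. THBD, thrombomodulin, the endothelial cofactor that turns thrombin towards protein C activation, had 475, 757 and 986 CPM in ECM libraries, against 78.5, 153 and 214 CPM in CM libraries. For THBD the log2 fold change was 2.31 ± 0.23 (adjusted p = 1.83e-05). PLAT, tissue plasminogen activator, had 121, 186 and 246 CPM in ECM libraries, against 54.8, 80.6 and 126 CPM in CM libraries. PLAT had a log2 fold change of 1.15 ± 0.22 (adjusted p = 0.00276). MMRN1, multimerin 1, a carrier protein of factor V, was lower in ECM, with 2.51, 3.22 and 4.04 CPM in ECM libraries, against 5, 9.5 and 14.2 CPM in CM libraries. For MMRN1 the log2 fold change was -1.47 ± 0.15 (adjusted p = 2.57e-05). It averaged 6.99 ± 2.82 CPM in control libraries.

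Genes of vascular tone were divided by direction, with 4 higher and 6 lower of 17 tested. NOS3, the endothelial nitric oxide synthase (ENSG00000164867.11, chromosome 7, 150990995 to 151014588, plus strand), had 890.2, 1519.9 and 1814 CPM in ECM libraries, against 167, 270.2 and 491 CPM in CM libraries. NOS3 had a log2 fold change of 2.25 ± 0.27 (adjusted p = 8.23e-05). The lowest ECM library lay above the highest CM library, while the control libraries, at 311 to 622 CPM, overlapped the CM range. PTGS2, the inducible cyclooxygenase of prostaglandin synthesis, had 8.86, 12.7 and 14.7 CPM in ECM libraries, against 2.84, 3.96 and 5.45 CPM in CM libraries. For PTGS2 the log2 fold change was 1.67 ± 0.17 (adjusted p = 2.43e-05). On the other side, EDN1, the vasoconstrictor endothelin 1 (ENSG00000078401.7, chromosome 6, 12290363 to 12297194, plus strand), had 48, 66.4 and 73 CPM in ECM libraries, against 156, 187 and 246 CPM in CM libraries. EDN1 had a log2 fold change of -1.57 ± 0.11 (adjusted p = 6.71e-07). Its control level of 115 ± 7.05 CPM (SD, n = 3) lay between the groups. APLN, apelin, a peptide that sprouting endothelial cells secrete, had 94.3, 105 and 119 CPM in ECM libraries, against 342, 384 and 445 CPM in CM libraries. For APLN the log2 fold change was -1.86 ± 0.11 (adjusted p = 2.42e-07). ADM, the vasodilator adrenomedullin, was lower (log2 fold change -0.82 ± 0.09, adjusted p = 3.07e-05). None of NOS3, PTGS2, EDN1, APLN and ADM overlapped between the groups.

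Some flow-responsive genes were higher on matrix. Of 15 tested, 5 rose, among them THBD and NOS3 above, and 1 fell. KLF2, the transcription factor that flow induces in endothelium, had 279, 372 and 499 CPM in ECM libraries, against 151, 171 and 253 CPM in CM libraries. KLF2 had a log2 fold change of 0.97 ± 0.17 (adjusted p = 0.0014). The groups did not overlap, but in replicate 1 KLF2 differed the other way, with log2 differences of -0.09 with senescent and -0.56 with young MSC products. ASS1, an enzyme of arginine synthesis, was lower (log2 fold change -0.75 ± 0.16, adjusted p = 0.00612).

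**Figure D3:**
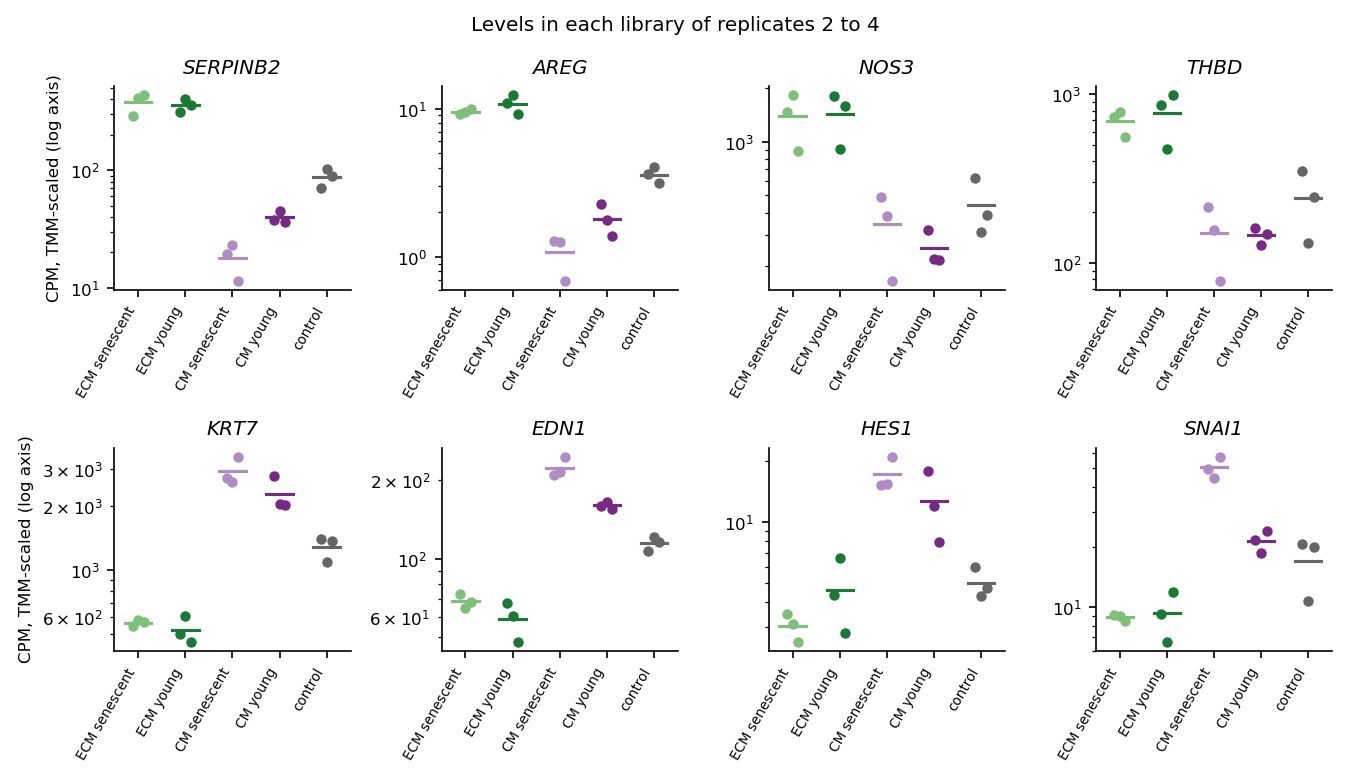
Levels of 8 genes in each library of replicates 2 to 4 (CPM, TMM-scaled, log axis); points are libraries and lines are group means, with ECM groups in green, CM groups in purple and control in grey. SERPINB2, AREG, NOS3 and THBD lie higher and KRT7, EDN1, HES1 and SNAI1 lower in ECM than in CM, with no overlap between the 6 and 6 libraries. All but EDN1 are among the top genes, for which no overlap was a condition.

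Several secreted signals and matricellular proteins differed. WNT16, a WNT ligand, had 9.61, 10.6 and 11.5 CPM in ECM libraries, against 0.254, 0.952 and 1.54 CPM in CM libraries. For WNT16 the log2 fold change was 3.54 ± 0.26 (adjusted p = 1.53e-06). Its control libraries lay at 1.82 to 3.63 CPM, between the groups. Of 17 WNT pathway genes tested 4 rose and 0 fell; LGR4, an R-spondin receptor, and FZD8, a Frizzled receptor, were higher (log2 fold change 1.22 ± 0.14, adjusted p = 5.32e-05, and log2 fold change 0.99 ± 0.18, adjusted p = 0.00233). CCN3, a matricellular protein, had 16, 20.4 and 23.8 CPM in ECM libraries, against 1.89, 3.25 and 3.69 CPM in CM libraries. CCN3 had a log2 fold change of 2.67 ± 0.17 (adjusted p = 3.88e-07). ABI3BP, an extracellular matrix protein, had 24.6, 67 and 76.7 CPM in ECM libraries, against 6.53, 7.95 and 14.4 CPM in CM libraries. For ABI3BP the log2 fold change was 2.75 ± 0.27 (adjusted p = 1.74e-05). STC1, the secreted glycoprotein stanniocalcin 1, had 266, 429.9 and 506 CPM in ECM libraries, against 28.6, 72.1 and 98.9 CPM in CM libraries. STC1 had a log2 fold change of 2.55 ± 0.22 (adjusted p = 6.12e-06). For CCN3, ABI3BP and STC1 every ECM library lay above every CM library, as the rule that chose them required. PDGFB, the growth factor through which endothelial cells recruit mural cells, was lower on matrix, with 4.45, 6.96 and 7.88 CPM in ECM libraries, against 13.4, 23.1 and 43.7 CPM in CM libraries. For PDGFB the log2 fold change was -1.90 ± 0.23 (adjusted p = 8.16e-05). TNFSF15, a TNF family cytokine of endothelial cells, had 4.39, 6.03 and 6.89 CPM in ECM libraries, against 13, 20.1 and 26.7 CPM in CM libraries. TNFSF15 had a log2 fold change of -1.71 ± 0.17 (adjusted p = 1.83e-05). Its control libraries were at 5.54 ± 2.79 CPM (SD, n = 3), within the ECM range in mean.

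Cells on matrix held more of some matrix and matrix-degrading transcripts and less of others. MMP1, interstitial collagenase, had 5691, 6255 and 6876 CPM in ECM libraries, against 1258, 2022 and 2389.8 CPM in CM libraries. For MMP1 the log2 fold change was 1.72 ± 0.13 (adjusted p = 1.82e-06). ADAMTS1, a secreted protease of proteoglycans, was higher (log2 fold change 0.90 ± 0.21, adjusted p = 0.00895). MMP2, gelatinase A, was lower, with 310.1, 438 and 482 CPM in ECM libraries, against 584, 1014 and 1453 CPM in CM libraries. MMP2 had a log2 fold change of -1.25 ± 0.17 (adjusted p = 0.00026). Among proteases and inhibitors 3 rose and 3 fell of 20 tested. In the basement membrane list 3 (13.0%) rose and 1 (4.35%) fell of 23 tested, near the 8.38% and 5.33% of all genes. COL4A6, a collagen IV chain, had 56.5, 101 and 126 CPM in ECM libraries, against 26.5, 30.2 and 48.9 CPM in CM libraries. For COL4A6 the log2 fold change was 1.51 ± 0.20 (adjusted p = 0.000217). SPARC, a collagen-binding glycoprotein, was lower (log2 fold change -0.54 ± 0.10, adjusted p = 0.00306). LAMA5, a laminin chain, had a log2 fold change of 1.01 ± 0.27 (adjusted p = 0.0234), which stayed past the threshold in 6 of the 12 fits that each left out a library. Interstitial matrix genes had 1 member higher and 4 lower of 27 tested. EFEMP1, fibulin 3, had 548, 679.5 and 850.5 CPM in ECM libraries, against 1534, 2148 and 2638 CPM in CM libraries. EFEMP1 had a log2 fold change of -1.57 ± 0.12 (adjusted p = 1.82e-06). THBS1, thrombospondin 1, an inhibitor of angiogenesis, was lower (log2 fold change -1.02 ± 0.23, adjusted p = 0.00909), and COL8A1, a short-chain collagen of vessels, was too (log2 fold change -0.80 ± 0.16, adjusted p = 0.00359). COL13A1, a transmembrane collagen, was the member that rose (log2 fold change 1.24 ± 0.18, adjusted p = 0.000434).

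Some receptors and adaptors of matrix adhesion rose. Of 18 integrin genes 4 (22.2%) rose and 1 fell (median 0.07). ITGB4, the partner of integrin alpha 6 in laminin binding, had 65.8, 116 and 138 CPM in ECM libraries, against 35.5, 56 and 75.3 CPM in CM libraries. For ITGB4 the log2 fold change was 0.97 ± 0.21 (adjusted p = 0.00587). Its groups overlapped. ITGA2, a collagen-binding chain, was higher (log2 fold change 0.76 ± 0.18, adjusted p = 0.0125). ITGA6 had a log2 fold change of 0.60 ± 0.15 (adjusted p = 0.0182), and without senescent CM replicate 4 its adjusted p was 0.0524. Of 25 focal adhesion genes 4 (16%) rose and 0 fell. FERMT3, kindlin 3, an integrin activator best known from blood cells, had 8.01, 9.09 and 10.6 CPM in ECM libraries, against 1.86, 2.88 and 3.1 CPM in CM libraries. FERMT3 had a log2 fold change of 1.78 ± 0.15 (adjusted p = 4.07e-06). TLN2, a talin that couples integrins to actin, was higher (log2 fold change 1.10 ± 0.15, adjusted p = 0.000194) and SRC, the adhesion-linked tyrosine kinase, was too (log2 fold change 0.71 ± 0.14, adjusted p = 0.0033). In the fit of all 4 replicates, which called 701 genes in all, 0 integrin genes and 1 focal adhesion gene, FERMT3, passed. ITGB4, ITGA2, ITGA6, TLN2 and SRC kept their direction there without passing.

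Targets of SRF and of YAP, transcriptional regulators that respond to actin and to matrix stiffness, had few called members. Of 19 SRF targets 1 (5.26%) rose and 3 (15.8%) fell (median 0.05). Of 20 YAP targets 2 (10%) rose and 2 (10%) fell (median 0.04), against 8.38% and 5.33% of all genes. These small counts give no result for either list as a whole. TPM1 and CNN2, actin-binding proteins, were lower (log2 fold change -0.67 ± 0.12, adjusted p = 0.00152, and log2 fold change -0.68 ± 0.12, adjusted p = 0.00146), and TPM4, another tropomyosin, was higher (log2 fold change 0.38 ± 0.09, adjusted p = 0.0122). CCN1, a matricellular YAP target, had 213, 286 and 357 CPM in ECM libraries, against 426, 514 and 649 CPM in CM libraries. For CCN1 the log2 fold change was -0.88 ± 0.13 (adjusted p = 0.000373). CCN2, its relative, averaged 419 ± 77.2 CPM in ECM libraries and 487 ± 95.2 CPM in CM libraries (SD, n = 6 each) and did not pass the threshold (log2 fold change -0.21 ± 0.15, adjusted p = 0.387). AMOTL1 and LATS2, inhibitors of YAP that YAP itself induces, were higher (log2 fold change 0.75 ± 0.18, adjusted p = 0.0109, and log2 fold change 0.73 ± 0.19, adjusted p = 0.0163).

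HES1 and SNAI1, targets of Notch and of TGF-beta signalling, were lower on matrix, while other members of the same lists moved in both directions. HES1, the repressor that Notch induces, had 2.54, 3.31 and 6.64 CPM in ECM libraries, against 7.98, 15.3 and 21 CPM in CM libraries. HES1 had a log2 fold change of -1.97 ± 0.26 (adjusted p = 0.000193). The ECM and CM libraries did not overlap, and the control mean was 4.99 ± 0.873 CPM (SD, n = 3), within the ECM range. In replicate 1 the levels were 33.6 and 28.7 CPM in ECM libraries, against 30.9 and 19.4 CPM in CM libraries, and the fit of all 4 replicates gave -0.69 (adjusted p = 0.646). Of 18 Notch genes tested 1 rose and 3 fell; the riser, the ligand JAG1, had a log2 fold change of 0.67 ± 0.20 (adjusted p = 0.0407) and stayed past the threshold in 3 of the 12 fits that each left out a library. SNAI1, a repressor of epithelial cadherin genes that TGF-beta induces, had 6.62, 9.02 and 11.9 CPM in ECM libraries, against 18.8, 34.4 and 57.2 CPM in CM libraries. For SNAI1 the log2 fold change was -1.87 ± 0.22 (adjusted p = 6.66e-05). NOX4, an oxidase that TGF-beta induces, had 13.8, 16.4 and 22.9 CPM in ECM libraries, against 37.7, 43 and 55.6 CPM in CM libraries. NOX4 had a log2 fold change of -1.39 ± 0.13 (adjusted p = 1.51e-05). SKIL, which restrains SMAD signalling and is itself a target of it, was lower (log2 fold change -0.87 ± 0.12, adjusted p = 0.000334), while ZEB2, another repressor of the same list, was higher (log2 fold change 1.07 ± 0.12, adjusted p = 3.83e-05). The TGF-beta list as a whole had 3 members higher and 5 lower of 29 tested (median -0.21). In the BMP list 1 rose and 4 fell of 16: ATOH8, a BMP-induced transcription factor of endothelium, had 5.9, 6.37 and 6.72 CPM in ECM libraries, against 10.3, 13.4 and 23.4 CPM in CM libraries. For ATOH8 the log2 fold change was -1.32 ± 0.19 (adjusted p = 0.000345). ID1, the standard BMP target, did not pass the threshold (log2 fold change 0.21 ± 0.15, adjusted p = 0.404).

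Promoters of SERPINB2, EGR1 and HES1 are shown because these genes are among the 30 with the largest differences and their windows held a match to a motif of a pathway above; they were picked after their values were seen. EGR1 and HES1 missed the threshold with all 4 replicates. They are RefSeq windows of GRCh38.p14, from 250 bases before to 50 after the annotated start, 5′ to 3′, and capitals mark matches on either strand. SERPINB2 (chr18:63887455-63887754, plus strand) held the AP-1 motif TGANTCA from base -102, EGR1 (chr5:138465229-138465528, plus strand) held the CArG-like motif of SRF from -105 and the RBPJ motif TGGGAA, on the other strand, from -86, and HES1 (chr3:194135898-194136197, plus strand) held TGGGAA from -84 and from -70, counted from the start base as 1 with no base 0.
SERPINB2: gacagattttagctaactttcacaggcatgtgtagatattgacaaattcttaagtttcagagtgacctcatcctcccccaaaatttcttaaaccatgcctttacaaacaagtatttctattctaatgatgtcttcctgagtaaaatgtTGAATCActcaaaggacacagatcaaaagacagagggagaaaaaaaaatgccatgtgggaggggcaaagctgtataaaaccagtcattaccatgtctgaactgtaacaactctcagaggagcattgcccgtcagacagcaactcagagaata
EGR1: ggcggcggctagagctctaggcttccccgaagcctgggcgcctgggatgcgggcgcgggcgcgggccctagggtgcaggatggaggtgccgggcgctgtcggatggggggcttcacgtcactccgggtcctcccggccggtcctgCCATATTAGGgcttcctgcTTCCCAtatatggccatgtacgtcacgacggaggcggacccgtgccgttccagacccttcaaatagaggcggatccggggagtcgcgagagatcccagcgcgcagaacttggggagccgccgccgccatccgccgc
HES1: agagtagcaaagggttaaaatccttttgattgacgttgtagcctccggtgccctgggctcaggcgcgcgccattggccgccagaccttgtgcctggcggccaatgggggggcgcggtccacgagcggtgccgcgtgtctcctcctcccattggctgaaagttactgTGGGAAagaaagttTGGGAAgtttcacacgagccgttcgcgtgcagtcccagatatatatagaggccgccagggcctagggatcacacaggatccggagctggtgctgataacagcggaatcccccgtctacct
Matches ranged from common to rare by motif: TGANTCA occurred in 7.76% of 27305 promoters, TGGGAA in 24.3%, the TEAD motif GGAATG in 14.0%, the E-box CACGTG in 7.43%, the SMAD box GTCTAGAC in 0.201% and the CArG-like motif in 0.0366%. The CArG-like motif was searched as 1 fixed sequence, without variable bases. Other forms of the SRF site were neither counted nor marked, so 0.0366% is not the share of promoters with any SRF site. RefSeq promoters were matched for 10 of the 15 top higher and 9 of the 15 top lower genes. TGANTCA was present in 1 of the 10 and 1 of the 9, and TGGGAA in 2 of the 10 and 3 of the 9. Over all genes with a promoter, TGANTCA was present in 9.21% of the 1010 that were higher, 6.94% of the 648 that were lower and 5.19% of the 11412 that were tested. In the same order TGGGAA was present in 18.7, 20.1 and 22.0%, GGAATG in 11.2, 11.3 and 11.3%, and CACGTG in 7.62, 9.88 and 9.92%. The SMAD box and the CArG-like motif were each in at most 1 gene of either changed set. These shares were not tested. A match is a description of the letters in this window.

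Cytokine and NF-kB genes moved in both directions. Of 25 chemokine and cytokine genes 9 (36%) rose and 3 fell (median 0.39). CXCL1, a neutrophil chemokine, had 3.6, 5.16 and 6.05 CPM in ECM libraries, against 1.18, 2.22 and 2.97 CPM in CM libraries. CXCL1 had a log2 fold change of 1.26 ± 0.23 (adjusted p = 0.0022). Its control mean was 1.71 ± 0.261 CPM. TNFSF18, a TNF family ligand, was higher (log2 fold change 0.84 ± 0.15, adjusted p = 0.00202). CCL2, the monocyte chemokine, was lower, with 11.4, 13.9 and 19.2 CPM in ECM libraries, against 22.9, 31.5 and 38.1 CPM in CM libraries. For CCL2 the log2 fold change was -1.09 ± 0.16 (adjusted p = 0.000315). Of 16 NF-kB genes 5 rose and 1 fell. TNFAIP3, the NF-kB-induced inhibitor A20, had 18.4, 27.9 and 29.4 CPM in ECM libraries, against 5.17, 9.29 and 15.2 CPM in CM libraries. TNFAIP3 had a log2 fold change of 1.45 ± 0.21 (adjusted p = 0.000301). RELB, an NF-kB subunit, was higher (log2 fold change 0.65 ± 0.16, adjusted p = 0.0156), whereas CD40, a TNF receptor family member, was lower (log2 fold change -0.43 ± 0.11, adjusted p = 0.0156). Interferon-induced genes were mixed, with 4 higher and 7 lower of 37: IFI6 and IFI44L were lower (log2 fold change -0.98 ± 0.21, adjusted p = 0.00493, and log2 fold change -0.90 ± 0.21, adjusted p = 0.00944), and USP18, which restrains interferon signalling, was higher (log2 fold change 0.95 ± 0.14, adjusted p = 0.000378).

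Angiogenic genes outside these groups also differed. In the sprouting list 8 rose and 6 fell of 29 tested. VEGFC, the lymphangiogenic growth factor, had 40.8, 50.2 and 54.3 CPM in ECM libraries, against 22.2, 26.1 and 32.9 CPM in CM libraries. For VEGFC the log2 fold change was 0.86 ± 0.12 (adjusted p = 0.00026). SLIT2, a ligand of ROBO guidance receptors, was higher (log2 fold change 1.10 ± 0.21, adjusted p = 0.00305). PLVAP, the protein of endothelial fenestral diaphragms, had 39.1, 45.4 and 84 CPM in ECM libraries, against 10.2, 15.4 and 25 CPM in CM libraries. PLVAP had a log2 fold change of 1.69 ± 0.24 (adjusted p = 0.000334). Of 20 junction genes 1 rose and 4 fell, and without young ECM replicate 3 the counts were 4 and 4. PCDH12, an endothelial protocadherin, was the riser (log2 fold change 1.09 ± 0.20, adjusted p = 0.0023), and CDH5 and JUP above were among those that fell.

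Redox, lipid and proliferation genes followed separate directions. Of 27 NRF2 targets 10 (37%) rose and 0 fell (median 0.35). SLC7A11, the cystine importer, had 176, 238 and 309.5 CPM in ECM libraries, against 82.6, 92.6 and 128 CPM in CM libraries. For SLC7A11 the log2 fold change was 1.27 ± 0.14 (adjusted p = 3.36e-05). UGDH, which makes UDP-glucuronate, had 149, 165 and 226 CPM in ECM libraries, against 65.9, 73.9 and 78.4 CPM in CM libraries. UGDH had a log2 fold change of 1.31 ± 0.12 (adjusted p = 9.28e-06). AKR1C1, an aldo-keto reductase with near-identical relatives whose reads could be split, had 3.25, 5.13 and 7.95 CPM in ECM libraries, against 0.984, 1.32 and 1.78 CPM in CM libraries. For AKR1C1 the log2 fold change was 1.91 ± 0.20 (adjusted p = 2.43e-05). In replicate 1 SLC7A11 and UGDH were lower in ECM than in CM with both MSC states, and the fit of all 4 replicates gave SLC7A11 a log2 fold change of 1.05 (adjusted p = 0.163). The control mean of SLC7A11, 178 ± 28.1 CPM, lay within the ECM range and that of AKR1C1, 2.14 ± 0.267 CPM, lay below it. Of 25 cholesterol genes none rose and 6 (24%) fell (median -0.21); INSIG1, the sterol-regulated retention protein of SCAP, had 12.1, 13 and 14.8 CPM in ECM libraries, against 24, 28.2 and 37.4 CPM in CM libraries. INSIG1 had a log2 fold change of -1.15 ± 0.12 (adjusted p = 2.09e-05). DHCR7, the last enzyme of the pathway, was lower (log2 fold change -0.86 ± 0.12, adjusted p = 0.000301). Both passed in each fit that left out 1 of the 12 libraries, while IDI1, an isomerase of the isoprenoid steps, passed in 4 of the 12 such fits and ACAT2, an acetyl-CoA acetyltransferase, in 3. With all 4 replicates, a fit that called 701 genes in all, 1 cholesterol gene of 26 fell. All called genes of the cell cycle list were lower on matrix, 16 (31.4%) of 51 tested, with small changes: CDC20, the activator of the anaphase-promoting complex, had 182, 208 and 222 CPM in ECM libraries, against 310.5, 334 and 396 CPM in CM libraries. For CDC20 the log2 fold change was -0.75 ± 0.10 (adjusted p = 0.000137). AURKB, a mitotic kinase, was lower (log2 fold change -0.60 ± 0.10, adjusted p = 0.000914) and MCM7, a subunit of the replicative helicase, was too (log2 fold change -0.57 ± 0.09, adjusted p = 0.000607). Without young ECM replicate 3 the counts were 19 lower and 1 higher. MKI67, the proliferation antigen, averaged 169 ± 42.7 CPM in ECM libraries and 167 ± 42.9 CPM in CM libraries (SD, n = 6 each) and did not pass the threshold (log2 fold change 0.03 ± 0.19, adjusted p = 0.945).

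Of 28 p53 targets 9 fell and 1 rose (median -0.21). BTG2, an antiproliferative factor, had 12.3, 20 and 21.5 CPM in ECM libraries, against 27.8, 34.6 and 36.2 CPM in CM libraries. BTG2 had a log2 fold change of -0.85 ± 0.12 (adjusted p = 0.00027). BBC3, the apoptosis inducer PUMA, was lower (log2 fold change -0.68 ± 0.11, adjusted p = 0.000835), as was PLK3, a stress kinase (log2 fold change -0.69 ± 0.09, adjusted p = 0.00023). GDF15, a stress-induced cytokine of the TGF-beta family, was also lower (log2 fold change -0.79 ± 0.10, adjusted p = 0.000148). In the integrated stress response list 5 rose and 3 fell of 22: TRIB3, a pseudokinase target of ATF4, was higher (log2 fold change 0.71 ± 0.11, adjusted p = 0.00073), and DDIT4, an inhibitor of mTORC1, was lower, with 1.48, 2.45 and 3.1 CPM in ECM libraries, against 5.3, 7.74 and 15.8 CPM in CM libraries. For DDIT4 the log2 fold change was -1.79 ± 0.23 (adjusted p = 0.000133). With all 4 replicates, a fit that called 701 genes in all, no member of that list rose and 3 fell. Of 21 unfolded protein response genes none rose and 4 fell, by at most 0.44 on the log2 scale, and the 4 (HSPA5, DNAJB9, HSP90B1 and XBP1) each lost the call in some of the fits that left out a library, the adjusted p reaching 0.109. In the hypoxia and glycolysis list 3 rose and 4 fell of 28 (without young ECM replicate 3, 5 and 4): NDRG1, a hypoxia-induced gene, was higher (log2 fold change 1.06 ± 0.14, adjusted p = 0.000199), and SLC2A1, the glucose transporter GLUT1, was lower (log2 fold change -0.93 ± 0.15, adjusted p = 0.000761). The aryl hydrocarbon receptor list had 2 members higher, of 9 tested, among them ALDH1A3, a retinaldehyde dehydrogenase (log2 fold change 0.49 ± 0.12, adjusted p = 0.0149).

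The result for ribosomal protein genes depended on which library was left out. With all 12 libraries none of 77 passed the threshold (median log2 fold change -0.33), and the list took 7.73 ± 2.41% of counts in ECM and 9.57 ± 2.17% in CM (SD, n = 6 each; exact permutation test, p = 0.155). Without young ECM replicate 3, 30 of 77 were lower in ECM, with a median of -0.55, and the difference in share was -2.76 percentage points (exact permutation test, p = 0.035). Of 39 nuclear oxidative phosphorylation genes none passed with all 12 libraries and 2 were lower without that one. Of 13 protein-coding genes of the mitochondrial genome tested 4 rose, and the list took 3.10 ± 0.602% of counts in ECM and 2.43 ± 0.177% in CM (SD, n = 6 each; exact permutation test, p = 0.06). One of them was MT-ND4, a subunit of complex I (log2 fold change 0.65 ± 0.17, adjusted p = 0.0172), whose adjusted p was 0.0559 without senescent ECM replicate 2; MT-ND4L, MT-ATP8 and MT-CYB each passed in 4 of the 12 fits that left out a library.

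The remaining genes with the largest differences belong to no common group. CIITA, the master regulator of MHC class II genes, had 12.7, 19.8 and 30.6 CPM in ECM libraries, against 2.42, 5.74 and 6.39 CPM in CM libraries. CIITA had a log2 fold change of 2.05 ± 0.22 (adjusted p = 3.36e-05). NCKAP1L, a subunit of the actin-regulating WAVE complex known from blood cells, had 6.75, 9.4 and 11.1 CPM in ECM libraries, against 1.04, 2.41 and 3.06 CPM in CM libraries. For NCKAP1L the log2 fold change was 1.93 ± 0.22 (adjusted p = 5.18e-05). NGEF, a guanine nucleotide exchange factor, had 6.23, 7.1 and 7.9 CPM in ECM libraries, against 1.23, 1.8 and 2.18 CPM in CM libraries. NGEF had a log2 fold change of 2.01 ± 0.15 (adjusted p = 1.1e-06). GCKR, the regulatory protein of glucokinase, was higher (log2 fold change 1.86 ± 0.18, adjusted p = 1.54e-05), and LYPD5, a surface protein of the LY6 and PLAUR family, was too (log2 fold change 2.45 ± 0.31, adjusted p = 0.000126). On the lower side MYLK2, the myosin light chain kinase of skeletal muscle, had 2.35, 2.97 and 3.87 CPM in ECM libraries, against 13.7, 21.8 and 31 CPM in CM libraries. For MYLK2 the log2 fold change was -2.77 ± 0.17 (adjusted p = 3.88e-07). AMTN, amelotin, a protein first known from tooth enamel, had 2.98, 6.08 and 8.14 CPM in ECM libraries, against 14.6, 37.9 and 57.7 CPM in CM libraries. AMTN had a log2 fold change of -2.62 ± 0.26 (adjusted p = 1.81e-05). TRPM2, a calcium-permeable channel opened by ADP-ribose, had 0.8, 1.23 and 1.44 CPM in ECM libraries, against 4.88, 5.15 and 5.55 CPM in CM libraries. For TRPM2 the log2 fold change was -2.13 ± 0.15 (adjusted p = 7.78e-07). Its control level of 4.44 ± 0.254 CPM lay below the lowest CM library and above the highest ECM library. HIC1, a transcriptional repressor, was lower (log2 fold change -2.03 ± 0.21, adjusted p = 2.09e-05). PLPP4, a phospholipid phosphatase, was lower (log2 fold change -1.91 ± 0.17, adjusted p = 6.19e-06), as was SH2D2A, an adaptor that binds VEGF receptor 2 (log2 fold change -1.85 ± 0.18, adjusted p = 1.72e-05). CABLES1, a binding partner of cyclin-dependent kinases, was lower (log2 fold change -1.69 ± 0.18, adjusted p = 2.78e-05), and DHRS2, a short-chain dehydrogenase, was too (log2 fold change -1.70 ± 0.23, adjusted p = 0.000235). In each of these genes the 6 ECM libraries lay wholly on 1 side of the 6 CM libraries, as the rule that chose them required.

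**Figure D4:**
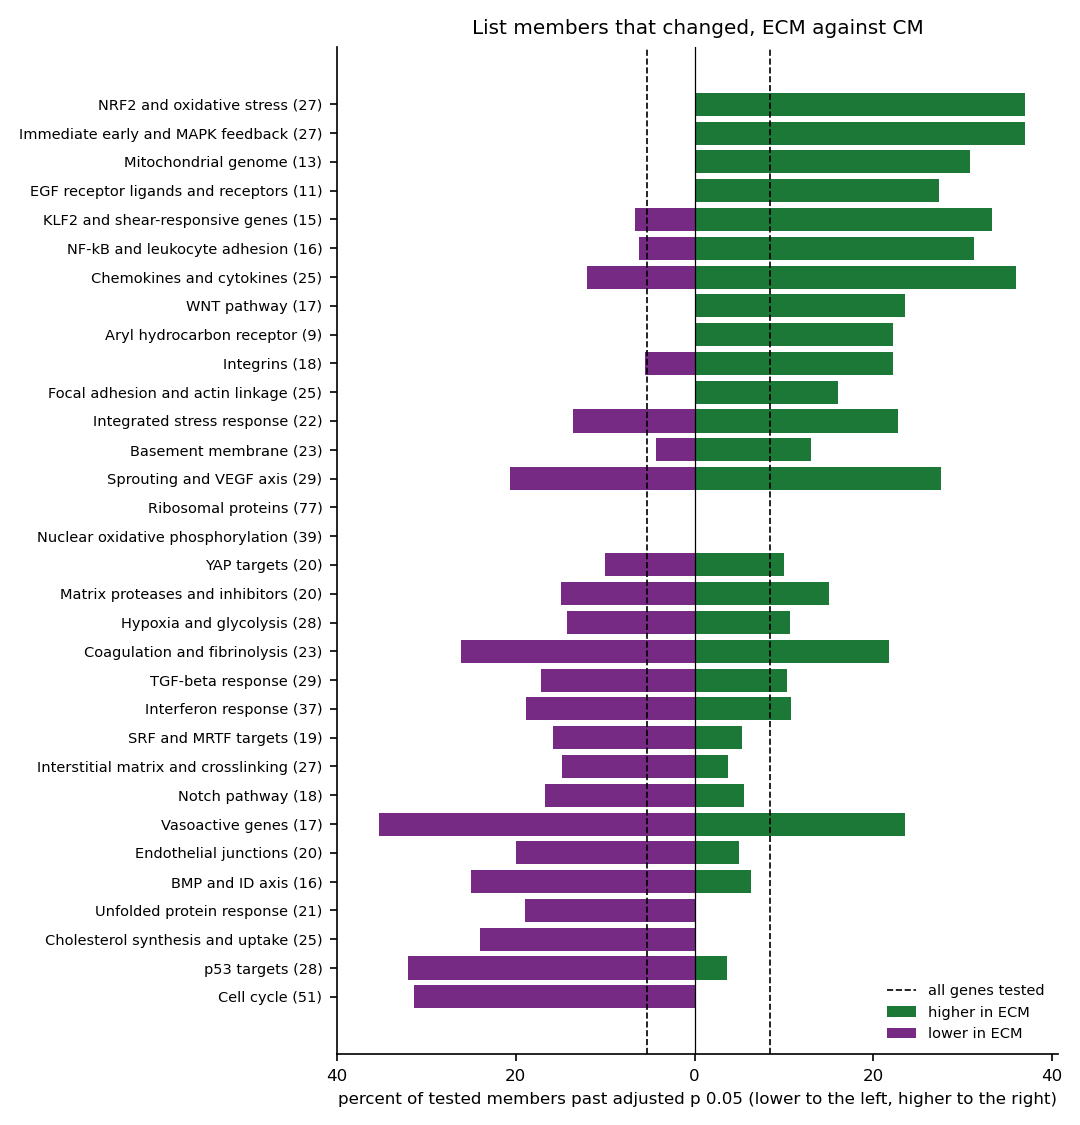
Percent of the tested members of each functional list that were higher (green, right) or lower (purple, left) in ECM than in CM at an adjusted p under 0.05, with the number tested in brackets; dashed lines mark the percent of all genes tested, 8.38% higher and 5.33% lower. On the higher side the NRF2 and immediate early lists reach 37.0% with none lower, and chemokines 36.0%, and on the lower side vasoactive genes reach 35.3% with 23.5% higher, and the p53 and cell cycle lists 32.1% and 31.4%.

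The difference between ECM and CM was next read within each MSC state. With products of senescent MSCs 917 genes (5.22% of 17571) passed the threshold, 536 (3.05%) higher and 381 (2.17%) lower. With products of young MSCs 684 (3.89%) passed, 479 (2.73%) higher and 205 (1.17%) lower. The 453 genes called with both, all in the same direction, are 49.4% of the 917 and 66.2% of the 684. The test of the difference itself, the ECM-CM difference with senescent minus that with young MSC products, called 0 genes (0.0%) in edgeR. At an unadjusted p under 0.05 there were 443 of 17571, fewer than that cut-off passes on average by chance. DESeq2 called 4. The counts within a state turned on single libraries. Without young ECM replicate 3 the count for young products was 3281, and it was 260 and 263 without young ECM replicates 2 and 4 and 337 and 296 without young CM replicates 2 and 3. For senescent products it was 559, 529 and 577 without senescent ECM replicates 2, 3 and 4 and 409 without senescent CM replicate 4.

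Each of the 15 top higher and 15 top lower genes passed the threshold in both states. Their shared direction was fixed by the rule that chose them, which required no overlap between the 6 and 6 libraries. SERPINB2 had a log2 fold change of 4.41 ± 0.27 (adjusted p = 3.67e-06) with senescent and of 3.17 ± 0.25 (adjusted p = 5.88e-05) with young MSC products. Its CM levels were 17.9 ± 5.88 and 39.6 ± 4.63 CPM with senescent and young products (SD, n = 3 each), and its ECM levels 380.0 ± 77 and 357 ± 43.8 CPM. SNAI1 had a log2 fold change of -2.51 ± 0.20 (adjusted p = 2.36e-05) with senescent and of -1.22 ± 0.19 (adjusted p = 0.0031) with young products, with 50.5 CPM in senescent and 21.6 CPM in young CM and 8.85 and 9.24 CPM in ECM. The difference between the states for SNAI1 was -1.28 ± 0.27 on the log2 scale, with an adjusted p of 1 in edgeR and 0.0276 in DESeq2. The other 3 genes that DESeq2 called, all lower, were NEDD9, an adhesion scaffold protein (-1.39 ± 0.22 in edgeR, adjusted p = 0.376; DESeq2 adjusted p = 3.62e-05), PCDH1, a protocadherin (-1.12 ± 0.23, adjusted p = 1; DESeq2 adjusted p = 0.0239), and MAF, a transcription factor (-2.90 ± 0.49, adjusted p = 0.376; DESeq2 adjusted p = 0.0176). In all 4 the senescent CM mean was the highest of the 4 group means: NEDD9 averaged 5.70 and 5.98 CPM in senescent and young ECM, and 13.3 and 5.32 CPM in senescent and young CM.

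**Figure D5:**
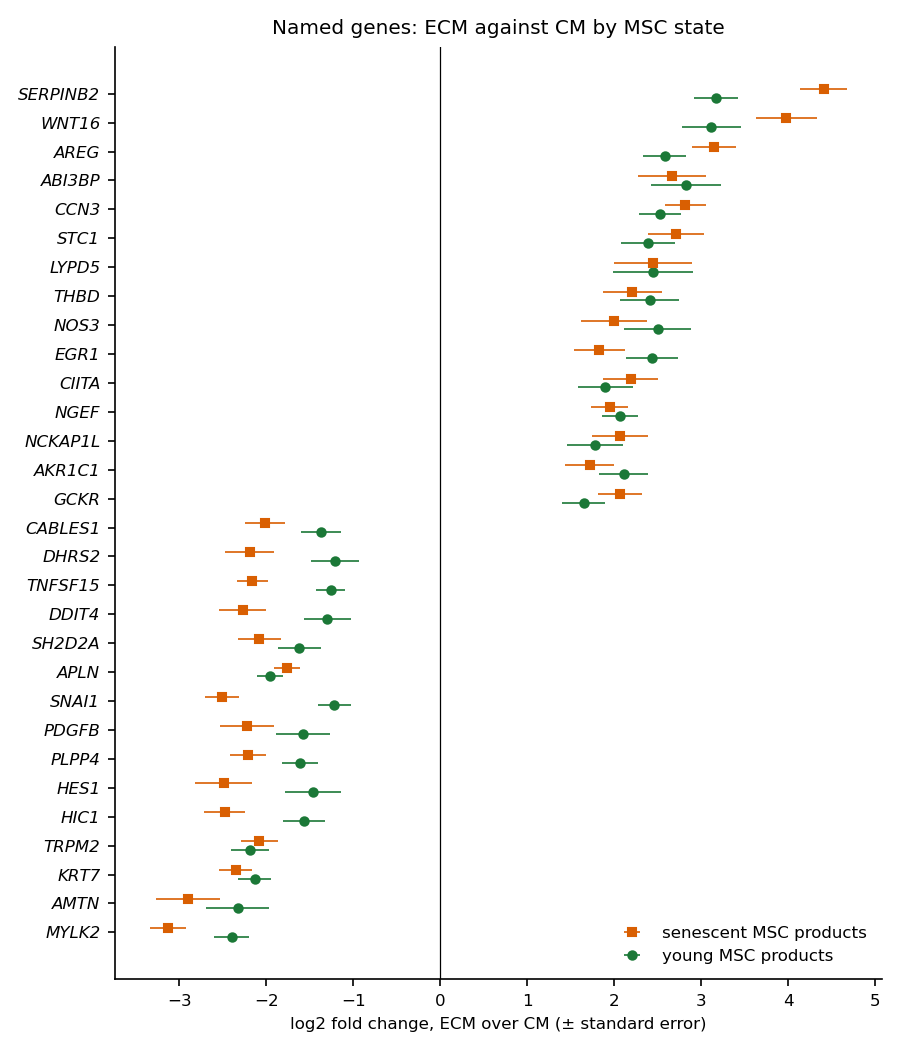
Log2 fold change, ECM over CM, of the 15 top higher and 15 top lower genes with products of senescent MSCs (orange squares) and of young MSCs (green circles); bars are standard errors. In each gene both estimates lie on the same side of 0, as the choice of genes without overlap required. The estimates are 4.41 and 3.17 for SERPINB2 and -2.51 and -1.22 for SNAI1, with senescent MSCs first.

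Levels in unexposed cells place the differences. Each exposure was compared with the same 3 control libraries, which the 2 comparisons therefore share, in a fit of 15 libraries and 18015 genes. ECM differed from control in 206 genes (1.14%), 129 (0.716%) higher and 77 (0.427%) lower. CM differed in 45 genes (0.25%), 21 (0.117%) higher and 24 (0.133%) lower. For SERPINB2 the log2 fold change was 2.08 ± 0.22 (adjusted p = 0.000258) for ECM over control and -1.69 ± 0.19 (adjusted p = 0.00146) for CM over control. AREG had 1.50 ± 0.20 (adjusted p = 0.0021) and -1.35 ± 0.19 (adjusted p = 0.00613), and WNT16 had 2.04 ± 0.31 (adjusted p = 0.00453) and -1.50 ± 0.28 (adjusted p = 0.0378), in the same order. MMP1 had 0.66 ± 0.13 (adjusted p = 0.0177) and -1.04 ± 0.12 (adjusted p = 0.00146). These 4 differed from control in opposite directions under the 2 exposures, each past the threshold. KRT7 did so the other way round, with -1.24 ± 0.15 (adjusted p = 0.00055) for ECM and 1.01 ± 0.16 (adjusted p = 0.0124) for CM, as did EDN1, with -0.85 ± 0.12 (adjusted p = 0.00222) and 0.74 ± 0.13 (adjusted p = 0.0203), APLN, with -1.0 ± 0.14 (adjusted p = 0.0026) and 0.88 ± 0.15 (adjusted p = 0.0218), and MYLK2, with -1.61 ± 0.15 (adjusted p = 0.000118) and 1.17 ± 0.17 (adjusted p = 0.00613). Other genes passed the threshold against control under ECM alone: NOS3 had 1.67 ± 0.35 (adjusted p = 0.0299) for ECM and -0.56 ± 0.32 (adjusted p = 1) for CM, THBD 1.59 ± 0.34 (adjusted p = 0.0315) and -0.70 ± 0.31 (adjusted p = 0.846), PTGS2 1.46 ± 0.17 (adjusted p = 0.00055) and -0.20 ± 0.16 (adjusted p = 1), and TRPM2 -1.91 ± 0.17 (adjusted p = 0.000105) and 0.24 ± 0.17 (adjusted p = 1). HES1 and TNFSF15 passed under CM alone, HES1 with -0.42 ± 0.26 (adjusted p = 0.713) for ECM and 1.58 ± 0.28 (adjusted p = 0.0262) for CM, and TNFSF15 with 0.11 ± 0.22 (adjusted p = 0.978) and 1.84 ± 0.24 (adjusted p = 0.004). Some of these calls rested on single libraries, of 15 left out in turn. WNT16 under CM passed in 4 of the 15 fits (highest adjusted p = 0.272), NOS3 and THBD under ECM in 8 each (0.221 and 0.195), and EDN1, APLN and HES1 under CM in 10 each (0.135, 0.0899 and 0.162). MMP1 under ECM passed in 12 (0.164) and KRT7 under CM in 13 (0.08), while SERPINB2, AREG and MYLK2 passed in all 15 under both exposures. Without control replicate 4 ECM differed from control in 42 genes and CM in 12.

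Replicate 1, which the fit of 12 libraries did not use, gave 1 further ECM and CM library of each MSC state, with the stromal transcripts described above. Of the 2409 called genes, 1287 (53.4%) differed there in the same direction with both senescent and young products and 524 (21.8%) in the opposite direction with both; of all 17571 genes the shares were 41.0% and 32.6%, relative to the direction in replicates 2 to 4. Among the 15 top higher genes 12 kept their direction in both and 1, EGR1, was opposite in both. Among the 15 top lower genes 11 kept it and 2 were opposite in both, HES1 and SH2D2A. SERPINB2 had 70.5 and 57.2 CPM in ECM libraries, against 22.6 and 25.5 CPM in CM libraries. THBD had 192 and 123 CPM in ECM libraries, against 83.9 and 90 CPM in CM libraries. KRT7 had 934 and 977 CPM in ECM libraries, against 1519 and 1222 CPM in CM libraries, with senescent products given before young in each pair. NOS3 had 619.6 and 411 CPM in ECM libraries, against 375 and 402 CPM in CM libraries, and APLN had 290.5 and 297 CPM in ECM libraries, against 305 and 322 CPM in CM libraries. The separation in replicate 1 was narrower for these genes than in replicates 2 to 4, and nearly absent for APLN and for NOS3 with young products. EDN1 had 49.5 and 60.1 CPM in ECM libraries, against 64.5 and 54.7 CPM in CM libraries there, with senescent products lower and young products higher in ECM. In a fit of all 4 replicates 701 genes passed the threshold, 667 of them among the 2409 in the same direction. Of the 128 called genes that the naming rules picked, 65 passed the threshold in that fit with the same direction, 62 had the same direction without passing, and EGR1 was reversed. The sizes among the 62 differed: the log2 fold change with all 4 replicates was 1.67 for PLVAP, 1.40 for NGEF, 0.97 for CXCL1, -0.99 for CCL2, 0.75 for KLF2 and 0.21 for LOX, and -0.55 for CDH5, -0.86 for FAP and -0.82 for HIC1. LOX was lower in ECM in replicate 1 with both MSC states. With the replicate number as a block in the fit of all 4 replicates 117 of the 128 passed. Without the block list counts were smaller: none of the 51 cell cycle genes passed, 0 rose and 1 fell in the chemokine and cytokine list, 2 rose and 0 fell among NRF2 targets, 7 rose and 1 fell among immediate early genes, and 0 rose and 5 fell in the epithelial list. That fit called 701 genes in place of 2409, so calls were fewer over all genes too. The shares of all genes given for the 12 libraries do not apply to these list counts.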

How the data were processed

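RNA was sequenced as poly(A)-selected, strand-marked libraries in 1 run, per the labels. The authors aligned reads with HISAT2 2.2.1 to GRCh38 and used featureCounts 2.0.1 for gene counts (source: the submitters' processing notes). The annotation release and the strand setting were not given in the sources used here, so antisense, overlapping and near-identical genes are uncertain. The deposited values are raw counts of 60648 gene entries; 44 copies of the pseudoautosomal regions on Y were left out. The label of the extract protocol names MSCs as the RNA source, while the cell type label says endothelial.

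Counts were filtered with filterByExpr (minimum count 10), scaled by TMM and tested with edgeR 4.0.16 in R 4.3.3 (quasi-likelihood test, Benjamini-Hochberg adjustment, threshold 0.05), with DESeq2 1.42.0 as an alternative. The ECM against CM fit used 12 libraries, each of 69883356 to 102130050 counts; the fit with control used 15. In simulated data (17348 genes) the first recovered 73% of 2-fold and 99% of 4-fold changes, with 6 false of 178 calls; the test of the difference between MSC states (17304 genes) recovered 15% and 66%. Shares of counts were compared by an exact permutation test within MSC state.

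Named genes were the 15 higher and 15 lower protein-coding genes with the largest log2 fold change among called genes with a mean of at least 5 CPM and no overlap between 6 and 6 libraries, up to 4 called members of each of 39 lists, and fixed markers whatever their result, of which not all are reported here; NEDD9 and MAF were named after their values were seen. The members and lists were chosen with earlier results of these data known. Alternatives were other scalings, DESeq2, no filter, no covariate, control libraries in the fit, all 4 replicates, a replicate block and leaving out each library.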

Additional observations from a re-analysis of the deposited data

Results flagged for a closer look

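In 102 groups of 6 libraries, the highest or lowest library was compared with the others by the gap to its neighbour over the range of the group; chance alone passes the critical value of 0.625 in about 1 of 20 groups, and 2 passed here. DHRS2 in the CM libraries passed because senescent CM replicate 4 had 42.3 CPM, against 12.9 to 21.8 CPM in the other 5 CM libraries (gap over range 0.696); its difference between ECM and CM was called in each of the 12 fits that left out 1 library. The share of ribosomal protein counts in the ECM libraries passed because young ECM replicate 3 had 12.4%, against 5.73 to 7.94% in the other 5 (gap over range 0.667).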

How the results depend on the processing

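The count of genes that differed between ECM and CM over both MSC states, 2409, stayed within 1.5 times under 9 of 10 settings: 2410 with RLE scaling, 2296 with library totals, 2428 with upper-quartile scaling, 2929 with no filter, 2274 with control libraries in the fit, 2504 without the covariate, 3112 with DESeq2, 3241 with a replicate block and 3050 with all 4 replicates and the block. It was 701 with all 4 replicates. Leaving out 1 library gave 1749 to 3274 for both states, 260 to 3281 for young and 409 to 1285 for senescent MSC products, 0 for the difference between states, 42 to 265 for ECM against control and 12 to 63 for CM against control. ECM differed from control in 128 and 102 genes without senescent ECM replicates 2 and 3 and in 123 without young ECM replicate 2, and CM in 28 and 27 without senescent CM replicates 3 and 4 and in 20 without control replicate 3. DESeq2 called 1295 genes with young and 1383 with senescent MSC products, 4 for the difference between states, 497 for ECM and 165 for CM against control. All 4 replicates gave 7 and 81 with young and senescent products, 4 for ECM and 0 for CM against control. No filter gave 1467 with young products, 60 for the difference between states, 457 for ECM and 208 for CM against control. The cause of these moves was not tested.

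Same-numbered libraries are not stated to share a culture or day. Their deviations correlated at -0.171 to 0.656 over 18 pairs, 13 of them over 0.1, against -0.714 to 0.592 for pairs of different numbers. Of 12 libraries 8 correlated best with their own number, a hint from the data that the numbers pair. Whether they pair was not tested, and the main fit had no replicate block. With the replicate block 1123 genes were called with young and 1346 with senescent products, 488 for ECM and 100 for CM against control, and 0 for the difference between states; with all 4 replicates and the block ECM against control gave 320. All 128 named genes called stayed called under the block, and PECAM1, not called without it, passed (-0.37, adjusted p = 0.0324).

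The 30 top genes kept their call under every other setting except all 4 replicates, where NGEF (1.40), HIC1 (-0.82) and HES1 (-0.69) missed the threshold and EGR1 was reversed (-0.58), and EGR1 with the block added (1.26, adjusted p = 0.0706). Of the 128 named genes called, 109 passed in each of the 12 fits that left out a library. Shares of counts that passed no test changed sign for the stromal list without young ECM replicate 3 (0.00139), senescent CM replicate 2 (0.00258) or senescent CM replicate 4 (0.000407), and for the endothelial list without young CM replicate 3 (-0.00318); over the fits that left out 1 library the stromal difference ranged from -0.00537 to 0.00258, the endothelial one from -0.00318 to 0.0457 and the ribosomal one from -2.76 to -1.30, the -2.76 without young ECM replicate 3 being the only one of these with a p under 0.05. With all 4 replicates the stromal difference was -0.0948 (exact permutation test, p = 0.645). The common biological coefficient of variation was 0.202, with 3 libraries per exposure and MSC state. In simulated data 15% of 2-fold and 66% of 4-fold changes in the difference between states were recovered. Changes of 2-fold or less in that difference were thus mostly beyond reach of these data, and larger ones could be missed.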
